A study of Arabidopsis thaliana with 9 samples.

Results

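Xylem vessels are dead, hollow cells that carry water, and their strength comes from a secondary wall laid down inside the primary one shortly before the cell dies. Described here are 10 Arabidopsis thaliana genes that mark this programme, namely CESA4, CESA7, CESA8, IRX9, XCP1, XCP2, LAC4, LAC17, VND7 and MYB46. They were chosen by name as known xylem and secondary wall genes, with earlier results of these data known, and all 10 were found among the 28775 genes of the count table. All 10 also passed the filter on low counts, which left 19580 genes to test.

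In the textbook order of the programme, a NAC transcription factor switch (VND7 in vessels) turns on the MYB factor MYB46, and both act on genes that build the wall. Cellulose of the secondary wall is made by a complex of 3 synthases (CESA4, CESA7 and CESA8). IRX9, a protein of a glycosyltransferase family, takes part in the extension of xylan. Laccases such as LAC4 and LAC17 oxidise monolignols so that they polymerise into lignin. The cysteine proteases XCP1 and XCP2 digest the cell contents as the vessel dies.

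Roots of wild-type seedlings of the Col-0 ecotype were compared in 3 groups, each with 3 RNA sequencing libraries. Mock seedlings grew for 6 days on ½ MS medium and then for 1 day on a fresh plate of it. The 1 day group spent the same 6 days without drug and met carbenicillin, a beta-lactam antibiotic, at 10 µg/mL only on the second plate. The 7 day group had 10 µg/mL on both plates, and all plants were kept at 24 °C with 16 h of light. The labels name no mutation or transgene in any group. Whether replicas were separate cultures is not stated, so the p-values reflect only how far these libraries differ, which may be technical.

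Totals ran from 13707967 to 16088265 counts in 6 libraries and were lower in mock 1 (5820675), 7 days 3 (6707693) and 1 day 3 (7533177). Those 3 shallow libraries had the highest mean level of 9 touch and early wounding genes, 3.77 to 4.14 log2 CPM (gene counts relative to the scaled library total) against 2.62 to 3.16 in the other 6. A list of 8 shoot transcripts summed to between 33.1 and 93.1 CPM in the same 3 libraries and in mock 3, and to between 0.60 and 2.14 CPM in the other 5, where 1 to 4 of the 8 were at 0. Markers of other root tissues were present in every library. The 14 phloem markers summed to 219 to 294 CPM in mock, 274 to 339 CPM after 1 day and 263 to 314 CPM after 7 days, and the 10 endodermis markers to 624 to 711, 615 to 690 and 555 to 614 CPM, with none of either list at 0. Their part in the values below was not tested. No library lacked xylem transcripts: the sum of the 10 genes lay between 566 CPM in 1 day 2 and 710 CPM in mock 3. In RNA from whole roots, fewer xylem cells and less RNA in each of them cannot be told apart.

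The 10 genes showed little difference between the groups, and none passed the test in any comparison. By edgeR (quasi-likelihood F test, p adjusted by Benjamini-Hochberg over all tested genes, threshold 0.05) 0 of 10 were called after 1 day, where 0.158% of all genes were called. The counts were 0 of 10 for 7 days against mock and 0 of 10 for 7 days against 1 day, where 0% of all genes were called in each. None of the 10 had an unadjusted p under 0.05 in any comparison, and DESeq2 also called 0 of 10 in each. Among all genes 1459, 870 and 398 had an unadjusted p under 0.05 in the order given, and DESeq2 called 197, 47 and 0 of the 24633 genes it tested (0.8%, 0.191% and 0%).

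The 95% interval of each gene gives the size of difference that the spread between these libraries allows. That spread may be technical, and each interval covers 1 gene in 1 comparison. All 10 of the 95% intervals lay within 1 log2 unit of 0 and held 0 in every comparison. The farthest bounds after 1 day were -0.48 for CESA7 and 0.63 for MYB46. For 7 days against mock they were -0.56 for MYB46 and 0.67 for LAC4, and for 7 days against 1 day -0.73 for MYB46 and 0.54 for LAC4. The median absolute log2 difference of the 10 was 0.14, 0.10 and 0.07 in the 3 comparisons, beside 0.14, 0.11 and 0.11 over all tested genes. Both comparisons with mock use the same 3 mock libraries, so their values are not independent.

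**Figure D1:**
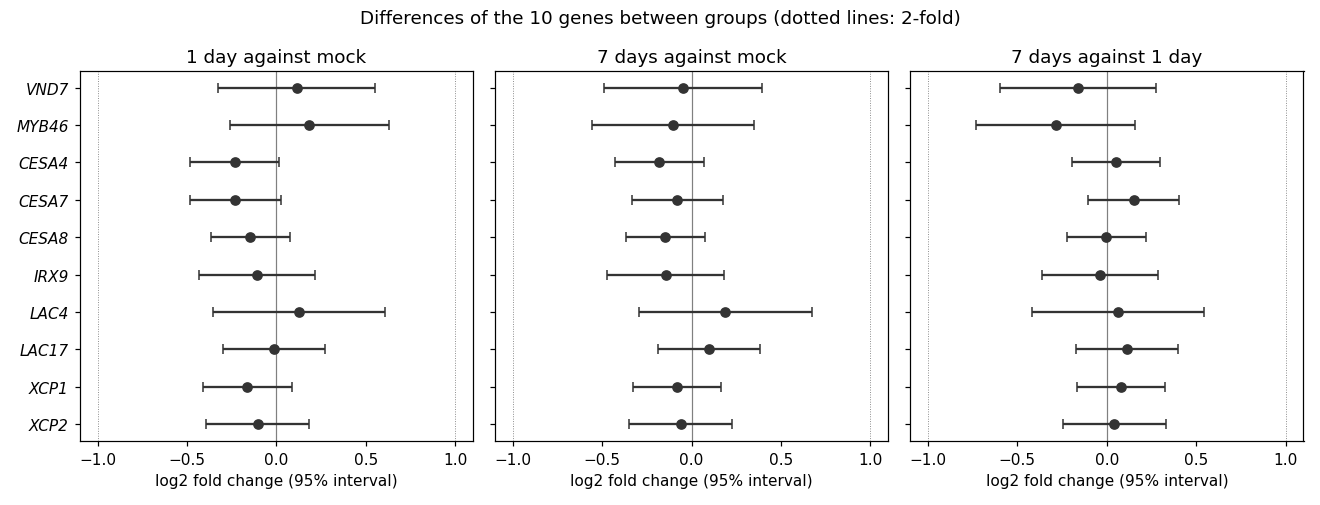
Log2 fold changes of the 10 genes (points) with 95% intervals (lines) in the 3 comparisons of the 9-library fit. Every interval crosses 0 and none reaches the dotted lines at 1 log2 unit, and the widest are those of LAC4 and MYB46.

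The master switch VND7 (AT1G71930), a NAC factor sufficient to turn root cells into vessel elements when overexpressed, was the lowest of the 10 genes. It stood at 3.85, 3.65 and 3.43 CPM in the mock libraries, 4.22, 3.21 and 4.44 CPM after 1 day, and 3.73, 3.62 and 3.00 CPM after 7 days. The 3 groups overlapped, with the lowest value in 7 days 3 and the highest in 1 day 3, both shallow libraries. Its log2 fold change was 0.11 after 1 day (SE 0.20, edgeR adjusted p = 0.909) and -0.05 after 7 days (SE 0.20), and the first was 0.26 without 1 day 2 and 0.04 without 1 day 3. These values rest on 20 to 59 counts per library, and the spread between replicates was 0.638 times the variance that counting error alone gives. The spread was thus no larger than counting error, and the interval after 1 day ran from -0.32 to 0.55. Whether depth or the number of libraries limits the precision for VND7 was not tested.

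MYB46 (AT5G12870), a direct target of the NAC switches that activates cellulose, xylan and lignin genes, was also low. Its mock libraries held 4.73, 6.72 and 5.92 CPM, those of 1 day 7.80, 6.36 and 5.88 CPM, and those of 7 days 4.88, 6.78 and 4.65 CPM. Values from 4.65 to 7.80 CPM were thus spread over all groups, with 27 to 109 counts behind them. The log2 fold changes were 0.18 after 1 day (SE 0.20) and -0.10 after 7 days (SE 0.21), and 7 days against 1 day gave -0.29 (SE 0.20, edgeR adjusted p = 1), the widest gap of any of the 10 in that comparison. That last value was -0.49 without 7 days 2 and -0.16 without 1 day 1, and the 1 day value was 0.31 without mock 2 and 0.06 without 1 day 1. Per kilobase of transcript MYB46 was above VND7 in 9 of 9 libraries, by a factor of 1.46 in mock 1 to 2.36 in 1 day 2.

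The secondary wall cellulose synthases had their lowest value in the same library, 1 day 2, and their highest in a mock library. CESA4 (AT5G44030) stood at 119, 110 and 121 CPM in mock, 101, 85.1 and 112 CPM after 1 day, and 97.8, 105 and 105 CPM after 7 days. All 3 libraries of 7 days lay below all mock libraries, while 1 day 3 lay inside the mock range. The mean was 116 ± 5.82 CPM in mock, 99.2 ± 13.3 CPM after 1 day and 103 ± 4.20 CPM after 7 days (SD, n = 3 each). The log2 fold change after 1 day was -0.23 (SE 0.11, 95% interval -0.48 to 0.02, edgeR adjusted p = 0.696), which was the lowest adjusted p of the 10 genes, and after 7 days it was -0.18 (SE 0.11, adjusted p = 1).

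CESA7 (AT5G17420) had 83.9, 82.3 and 79.8 CPM in mock, 76.4, 58.7 and 74.8 CPM after 1 day, and 72.9, 77.2 and 82.7 CPM after 7 days. Here the 1 day libraries were the ones that all lay below mock, and 7 days 3 lay inside the mock range. The log2 fold change was -0.23 after 1 day (SE 0.12, edgeR adjusted p = 0.711) and -0.08 after 7 days (SE 0.12). CESA8 (AT4G18780), the least variable of the 10, held 71.5, 69.0 and 73.0 CPM in mock, 65.1, 58.6 and 69.7 CPM after 1 day, and 66.2, 67.2 and 59.1 CPM after 7 days. Its 7 day libraries were all below mock, 1 day 3 again lay inside the mock range, and the log2 fold changes were -0.15 in both comparisons with mock (SE 0.10 each, adjusted p = 0.80 after 1 day and 1 after 7 days).

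Few of the 10 genes were separated by group. After 1 day 1 of the 10 genes, CESA7, did not overlap with mock, and it lay below, where 12.3% of all tested genes did not overlap and 5.79% lay wholly below. After 7 days CESA4 and CESA8 lay wholly below mock, 2 of 10, where 9.15% of all genes did not overlap and 4.53% lay below. Between 7 days and 1 day 0 of 10 were separated, beside 6.37% of all genes in either direction and 3.31% with 7 days lower. The difference after 1 day rested in large part on 1 day 2. Without that library the log2 fold change against mock was -0.13 for CESA4, -0.12 for CESA7 and -0.08 for CESA8. Without the 3 shallow libraries it was -0.31, -0.26 and -0.20 in that order, and no call was made.

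**Figure D2:**
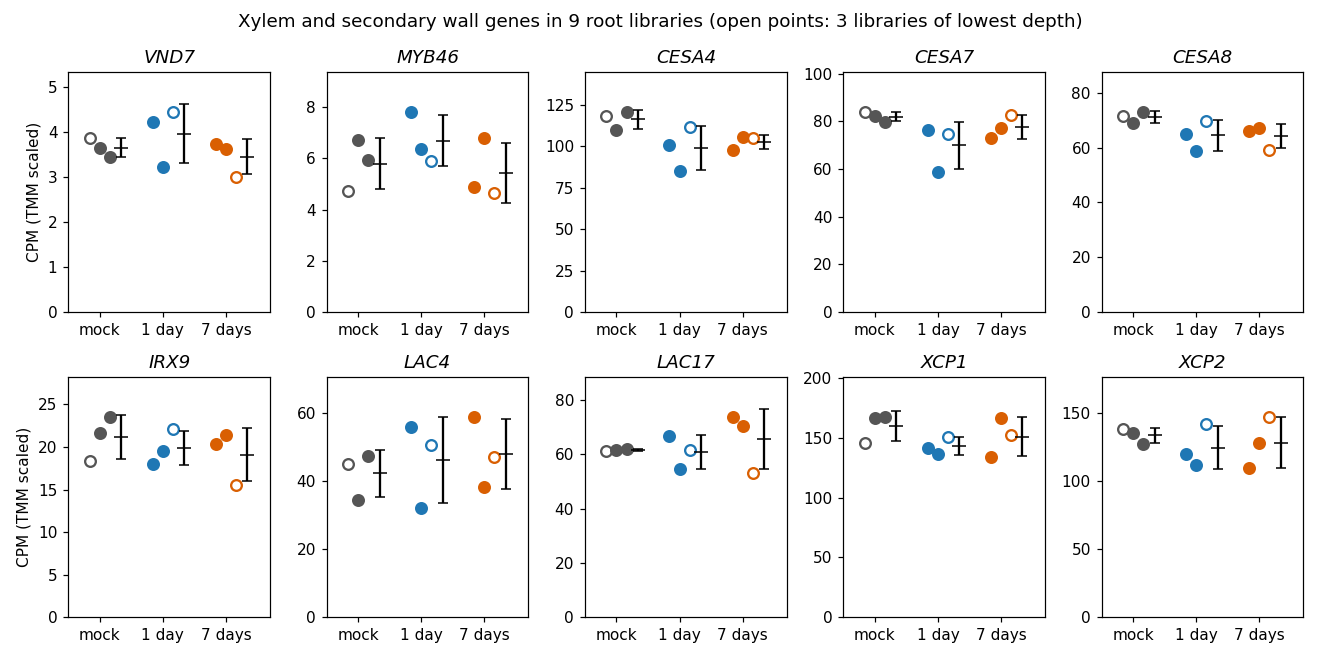
TMM-scaled CPM of each gene by library in mock, 1 day and 7 days of carbenicillin, with the mean and SD of each group beside the points and open points for the 3 libraries of lowest depth. Groups overlap in all panels except CESA7 (1 day below mock) and CESA4 and CESA8 (7 days below mock), and LAC4 and MYB46 show the widest scatter within groups.

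Relative to each other the 3 synthases kept similar proportions in every library. Per kilobase of transcript, CESA4 made up 39.5% to 42.3% of their sum, CESA7 29.6% to 34.3% and CESA8 24.9% to 30.1%. The ratio of CESA7 to CESA4 averaged 0.753 ± 0.047 in mock, 0.754 ± 0.049 after 1 day and 0.807 ± 0.032 after 7 days (SD, n = 3 each). CESA8 to CESA7 was the most variable of these ratios, from 0.726 in 7 days 3 to 1.01 in 1 day 2, and the groups overlapped.

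Upstream of CESA4 and of the protease gene XCP1 lies a motif known for vessel genes, shown here because it occurs before both a wall gene and a cell death gene of the set. The tracheary element-regulating element (TERE), known from Zinnia and Arabidopsis genes of vessel formation, is spelled CTTNAAAGCNA. A search of the 250 bases before each annotated gene start, on both strands, found it in 2 of the 10 genes and in 101 of 27443 promoters (0.368%). Both matches lie on the strand of the gene and are given below in capitals, 5′ to 3′, within 30 bases of the plus strand. The sequences were read by gene ID from RefSeq's genome and annotation, build TAIR10.1, since the count table holds no coordinates.
CESA4, chr5:17714360-17714389: tacataataaCTTGAAAGCTActctaagtt
XCP1, chr4:16810397-16810426: attgtctttgCTTCAAAGCCAatcctatga
The CESA4 match ends 9 bases before the annotated gene start, inside the annotated end of the neighbour AT5G44020, and the XCP1 match ends 64 bases before its start, outside any annotated gene. A second motif, the 7-base secondary wall MYB-responsive element (SMRE, the 8 spellings ACCAAAC or ACCAAAT, likewise ACCAACC or ACCAACT, also ACCTAAC or ACCTAAT, and lastly ACCTACC or ACCTACT), was found in 3 of the 10 windows, those of CESA4, LAC17 and VND7, and in 29.4% of all promoters. These matches describe letters only, and neither CESA4 nor XCP1 passed the test in any comparison.

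IRX9 (AT2G37090) is a protein of a glycosyltransferase family that takes part in elongating the xylan backbone. It had 18.4, 21.6 and 23.5 CPM in mock and 18.0, 19.5 and 22.1 CPM after 1 day. After 7 days it had 20.3, 21.4 and 15.6 CPM. Values overlapped throughout, and the low one of 7 days came from a shallow library with 104 counts. Its log2 fold change was -0.11 after 1 day (SE 0.15) and -0.15 after 7 days (SE 0.15). The second of these was -0.03 without 7 days 3, and the first was -0.26 without the 3 shallow libraries.

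The lignin laccases LAC4 and LAC17, which act together in stems, differed in their scatter, LAC4 being the more variable. LAC4 (AT2G38080) held 45.2, 34.5 and 47.3 CPM in mock, 55.9, 32.0 and 50.8 CPM after 1 day, and 58.9, 38.4 and 47.1 CPM after 7 days. Library 2 was the lowest in each group, as it was for 7.88% of all tested genes, and its 3 values lay below the other 6. Any same number was lowest in all 3 groups for 15.2% of tested genes. The spread within groups, 0.34 log2 units (SD), was the highest of the 10 and higher than in 78.9% of tested genes, and it was 33.0 times what counting error gives. Log2 fold changes were 0.13 after 1 day and 0.19 after 7 days (SE 0.22 each), and neither passed the test. Without 1 day 2 the first became 0.34, and without 1 day 1 it became -0.04.

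LAC17 (AT5G60020) held 61.1, 61.5 and 62.0 CPM in mock. Values were wider under carbenicillin, at 66.8, 54.4 and 61.6 CPM after 1 day and 73.6, 70.2 and 53.1 CPM after 7 days. The mock values lay closer together than their counting error. Its intervals were 54.9 to 67.9, 57.7 to 65.4 and 58.1 to 66.1 CPM in the same order. The value of 53.1 CPM came from 7 days 3, a shallow library. Whether the spread differed between mock and carbenicillin was not tested. Both carbenicillin groups had values above and below those of mock. The log2 fold changes were -0.01 after 1 day and 0.10 after 7 days (SE 0.13 each), and without 7 days 3 the latter was 0.23. Per kilobase, the ratio of LAC4 to LAC17 was 0.514, 0.539 and 0.501 in the libraries numbered 2 and between 0.677 and 0.812 in the other 6. In each group the lowest ratio was thus that of library 2. What libraries of the same number share is not stated, and the cause of the split was not tested.

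**Figure D3:**
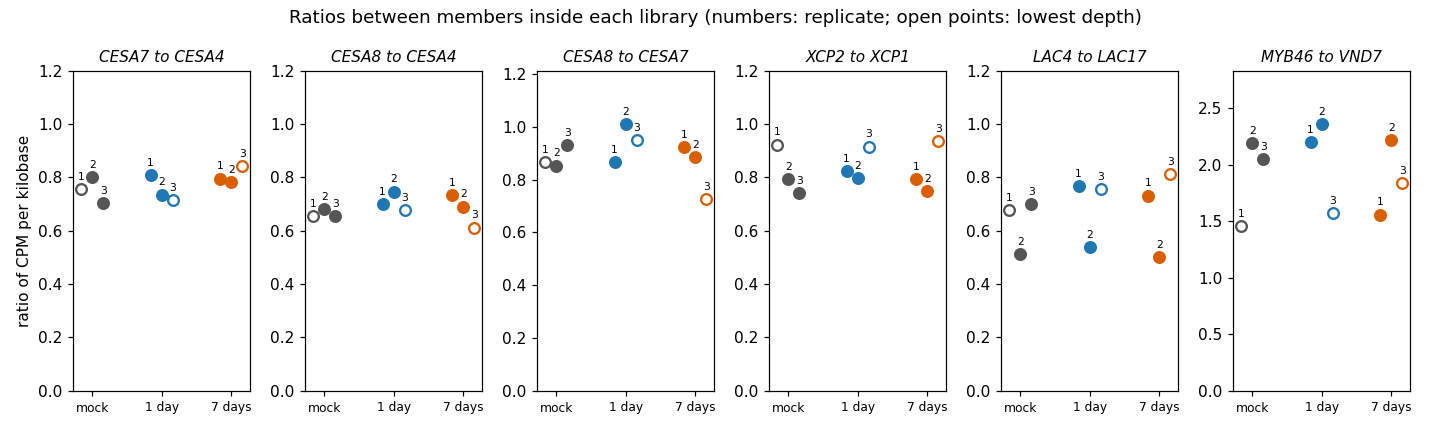
Ratios of CPM per kilobase between pairs of genes inside each library, by group, with the replicate number above each point and open points for the 3 libraries of lowest depth. The ratio of LAC4 to LAC17 is lowest in library 2 of each group (0.501 to 0.539), whereas ratios among the 3 synthases overlap between groups.

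XCP1 and XCP2, papain-like proteases of the vessel vacuole that take part in the breakdown of cell contents, were the most abundant of the 10. XCP1 (AT4G35350) had 145, 166 and 167 CPM in mock, 142, 136 and 151 CPM after 1 day, and 134, 166 and 153 CPM after 7 days. Mock 1 lay within the range of the 1 day group, and the 7 day values covered most of the mock range. Log2 fold changes were -0.16 after 1 day (SE 0.11, edgeR adjusted p = 0.80) and -0.08 after 7 days (SE 0.11), and the first was -0.26 without the 3 shallow libraries.

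XCP2 (AT1G20850) stood at 138, 136 and 127 CPM in mock, 120, 112 and 142 CPM after 1 day, and 109, 128 and 147 CPM after 7 days. In each carbenicillin group the shallow library was above all 3 mock libraries and the lowest library was below them. The log2 fold change was -0.10 after 1 day and -0.06 after 7 days (SE 0.13 each), and without 1 day 2 the first was -0.03. The ratio of XCP2 to XCP1 per kilobase was 0.923, 0.916 and 0.936 in the 3 shallow libraries and 0.741 to 0.823 in the other 6. The same 3 libraries also had the highest touch and wounding levels, and these cannot be told apart from depth. How many other gene pairs split the libraries in this way was not counted. Over all tested genes, deviations from group means also correlated between these 3 libraries (0.245 to 0.36), as in some pairs of other libraries.

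Seen library by library, the 10 genes did not move as one. In 1 day 2 only 1 of 10, MYB46, was above its own mean over the 9 libraries, and the mean deviation there was -0.20 log2 units. Means in the other 8 libraries lay between -0.10 in 7 days 3 and 0.09 in 1 day 3. Of the 10 lowest values, 4 fell in 1 day 2 (CESA4, CESA7, CESA8 and LAC4), 4 in 7 days 3 (IRX9, LAC17, VND7 and MYB46) and 2 in 7 days 1 (XCP1 and XCP2), and 0 in a mock library. Of the 10 highest values, 4 fell in mock 3, 1 in mock 1, 2 in 7 days 1 and 1 each in 1 day 1, 1 day 3 and 7 days 3. How often all tested genes had their lowest value outside mock was not counted. The ratio of the highest to the lowest library was between 1.25 for CESA8 and XCP1 and 1.84 for LAC4.

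**Figure D4:**
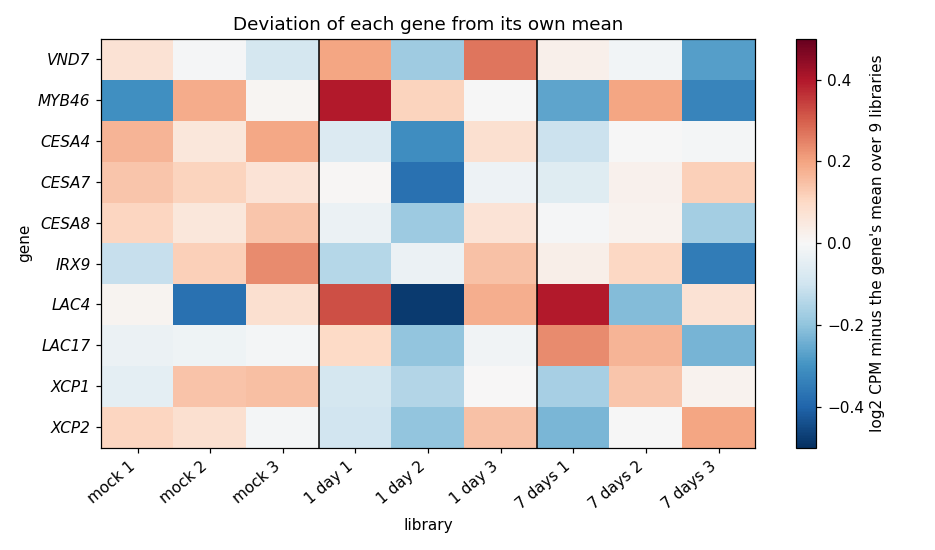
Log2 CPM of each gene minus its mean over the 9 libraries, with libraries in columns and black lines between groups. In 1 day 2 the column is below 0 for 9 of 10 genes, and the other columns hold both signs.

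Levels per transcript length were ordered by role only in part. Averaged over the 9 libraries, CPM per kilobase was 113 ± 9.69 for XCP1, 93.4 ± 9.54 for XCP2, 30.6 ± 3.27 for LAC17, 29.2 ± 3.01 for CESA4 and 22.5 ± 2.25 for CESA7 (SD, n = 9). Below them came LAC4 at 20.4 ± 4.10, CESA8 at 19.9 ± 1.51, IRX9 at 13.6 ± 1.64, MYB46 at 4.77 ± 0.86 and VND7 at 2.47 ± 0.31. The ranges of neighbours in this order did not overlap for XCP2 over LAC17, CESA8 over IRX9, IRX9 over MYB46 and MYB46 over VND7. XCP1 exceeded XCP2, and CESA4 exceeded CESA7, inside 9 of 9 libraries although their ranges overlapped. LAC17 and CESA4, CESA7 and LAC4, and LAC4 and CESA8 changed places between libraries (the first of each pair was higher in 4, 6 and 4 of 9).

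Over the 9 libraries, the 3 synthases had the profiles closest to the mean of the other genes of the set. As a measure of likeness, the mean absolute difference of z-scored log2 CPM from the mean profile of the other 9 was 0.481 for CESA8, 0.554 for CESA4 and 0.599 for CESA7, and 1.76%, 5.11% and 8.19% of all other tested genes came closer to those profiles. For VND7, LAC17, XCP1, IRX9, XCP2 and LAC4 it was 0.702 to 0.822, and 20.6% to 39.8% of genes came closer, whereas for MYB46 it was 0.974 and 68.5% came closer. These profiles share their libraries, the low 1 day 2 among them. For each synthase the other 9 also include its partner synthases, which favours likeness. The 6 genes outside the set with the profile most like its mean were ORTHL (0.308), AT1G78820 (0.317), AT3G62870 (0.323), RPL34 (0.327), MOD1 (0.333) and BCA5 (0.341). None of the 6 is on a list of xylem genes used here.

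The wider programme was read from 10 lists that hold 125 further genes, of which 117 were tested. In edgeR's test 0 of the 117 were called in each comparison, with 12 (10.3%) at an unadjusted p under 0.05 after 1 day, 7 (5.98%) for 7 days against mock and 5 (4.27%) for 7 days against 1 day, beside 7.45%, 4.44% and 2.03% of all tested genes. DESeq2 called 5 of 122 after 1 day, which were ACL5, BLH6, CAD4, CESA5 and MYB4, beside 0.8% of all genes, and 0 in the other comparisons. After 1 day 60 of 117 were lower than in mock (51.3%, median log2 -0.01), beside 50.3% of all genes. Without mock 1 it was 74 of 117 (63.2%, median -0.06), and without the 3 shallow libraries 75 (64.1%, median -0.08). After 7 days 83 of 117 were lower (70.9%, median -0.09), beside 49.7% of all genes with a median of 0.00. Without 7 days 3 it was 71 (60.7%, median -0.05, beside 51.2% of all genes), and without mock 3 it was 73 (62.4%, median -0.05). After 1 day 17.1% of the 117 did not overlap with mock in either direction, beside 12.3% of all tested genes. After 7 days it was 9.4% beside 9.15%. By direction, 13 of the 117 lay wholly below mock and 7 wholly above after 1 day, where 5.79% of all genes lay below. After 7 days 10 lay wholly below and 1 wholly above, where 4.53% of all genes lay below. The tested genes named below from each list were those of lowest p against mock, and that choice favours genes separated from mock. For markers of other root tissues, the values after 7 days had 9 of 10 endodermis markers lower (median -0.22), 5 of 7 root hair markers lower (median -0.17) and 12 of 14 phloem markers higher (median 0.11), none of them called. Their part in the xylem values was not tested.

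Among other regulators, 5 of the 13 tested NAC and LBD factors were lower after 1 day and 7 after 7 days, with medians of 0.04 and 0.00. The vessel factors VND1, VND2 and VND4, close relatives of VND7, had log2 fold changes of -0.59, -0.36 and -0.14 after 1 day and 0.03, 0.02 and -0.13 after 7 days, and LBD18 had 0.04 and -0.36. The fibre switches NST1, NST2 and NST3 summed to 5, 0 and 2 counts over the 9 libraries and were not tested. Of the 17 MYB, KNOX and BELL factors, 9 were lower after 1 day (median -0.02) and 15 after 7 days (median -0.20). MYB4, a repressor of phenylpropanoid genes, had 55.7, 53.0 and 64.0 CPM in mock, 33.3, 45.0 and 38.1 CPM after 1 day, and 32.7, 37.2 and 43.5 CPM after 7 days. Every carbenicillin library lay below every mock library, with log2 fold changes of -0.57 (SE 0.14, edgeR adjusted p = 0.209) and -0.62 (SE 0.14, adjusted p = 0.460). BLH6, a BELL homeodomain partner of KNAT7, likewise lay below mock in all 6, from 21.4 ± 4.10 CPM in mock to 13.6 ± 1.14 and 14.8 ± 1.57 CPM (SD, n = 3 each; log2 -0.67 and -0.54, adjusted p = 0.159 and 0.670).

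Among wall polysaccharide genes beyond the set, edgeR called none in either comparison with mock. Of all tested genes 50.3% were lower after 1 day and 49.7% after 7 days, and the counts below stand beside those shares. Of 15 xylan genes, 11 were lower after 1 day (median -0.11) and 12 after 7 days (median -0.06). The xylan methyltransferase GXMT1 had log2 fold changes of -0.28 and -0.24, the glycosyltransferase IRX14 -0.35 and -0.12, and the glucuronyltransferase GUX2 -0.16 and -0.43. Of 9 genes for the deposition of secondary wall cellulose, 5 and 6 were lower, with medians of -0.05 and -0.05. Here the chitinase-like CTL2 gave 0.14 and 0.02, the arabinogalactan protein FLA11 -0.18 and -0.10, and TED7 0.03 and 0.21.

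In the primary wall synthases 5 of 6 tested genes were lower after 1 day (median -0.19) and 4 of 6 after 7 days (median -0.11). CESA5, which can stand in for CESA6 in the primary wall complex, had 143, 124 and 130 CPM in mock, 89.0, 85.6 and 103 CPM after 1 day, and 113, 109 and 109 CPM after 7 days. Both carbenicillin groups lay below mock, at log2 fold changes of -0.52 (SE 0.10, edgeR adjusted p = 0.114) and -0.27 (SE 0.10, adjusted p = 1). CESA6 itself had -0.24 and -0.14. The difference between CESA5 and the secondary wall synthases was not tested.

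Lignin genes outside the set were lower in most cases after 7 days, although none passed the test. All 15 monolignol genes had lower values then (median -0.17), with 13 of 15 (median -0.12) without 7 days 3, 13 without 7 days 2 and 14 without any 1 of the other 4 libraries compared. The list's mean was 7.66 log2 CPM in 7 days 3, the lowest of all 9 libraries, beside 7.84 and 7.94 in 7 days 1 and 7 days 2 and 7.86, 8.12 and 8.04 in mock, so these groups overlapped. After 1 day 10 of 15 were lower (median -0.15). CAD4, a cinnamyl alcohol dehydrogenase, went from 335 ± 32.9 CPM in mock to 229 ± 20.6 CPM after 1 day and 262 ± 31.4 CPM after 7 days (SD, n = 3 each; log2 -0.55 and -0.35, edgeR adjusted p = 0.169 and 0.966), with both groups below mock. PAL1, the entry enzyme phenylalanine ammonia-lyase, had -0.73 (SE 0.24, adjusted p = 0.435) after 1 day, and CAD5 had -0.17 and -0.24. Among 14 other laccases 7 and 10 were lower (medians 0.01 and -0.05), with LAC12 at -0.62 and -0.54, LAC16 at -0.40 and -0.46 and LAC13 at 0.05 and -0.54. Of 7 lignin peroxidases 6 and 5 were lower (medians -0.15 and -0.17), with PRX25 at -0.45 and -0.31, PRX47 at -0.28 and -0.11 and PRX72 at -0.06 and -0.21.

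The 9 listed genes of developmental cell death had higher values than mock after 1 day (median 0.14), and none passed the test. Among all genes 49.7% were higher. Whether the values of this list come from vessels or from other dying root cells was not tested. XCP1 and XCP2, which are not on that list, were at -0.16 and -0.10. Without mock 1, 6 of 9 were higher (median 0.07), and without the 3 libraries of lowest depth 4 of 9 were (median -0.06). In the fit of all libraries 6 of 9 were lower after 7 days (median -0.09), and 8 of 9 were lower in 7 days than in 1 day (median -0.21). The nuclease RNS3 had log2 fold changes of 0.23 and 0.01, the aspartic protease PASPA3 0.32 and -0.12, the metacaspase MC9 0.06 and -0.11, and the subtilase XSP1 0.06 and 0.13. Mock 1 stood low for this list, with a mean of 4.03 log2 CPM beside 4.64 in mock 2 and 4.58 in mock 3. The 1 day libraries held 4.50, 4.64 and 4.83 and those of 7 days 4.36, 4.56 and 4.36, so the other mock libraries lay inside the 1 day range.

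Procambium and patterning genes were higher in 10 of 12 after 1 day and 9 of 12 after 7 days, with medians of 0.11 and 0.13. ACL5, the thermospermine synthase that limits vessel differentiation, stood at 52.0, 69.6 and 81.4 CPM in mock, 134, 115 and 92.5 CPM after 1 day, and 93.7, 81.0 and 88.0 CPM after 7 days. All 1 day libraries lay above mock and those of 7 days overlapped it narrowly, with log2 fold changes of 0.74 (SE 0.17, edgeR adjusted p = 0.159) and 0.36 (SE 0.17, adjusted p = 1). HB8, a homeodomain factor of the procambium, was above mock in all 6 carbenicillin libraries, by 0.16 and 0.22 (SE 0.09 each). Neither difference of HB8 passed the test (edgeR adjusted p = 0.75 after 1 day). SAC51, whose translation thermospermine promotes, and LHW, a partner of TMO5, are listed at 0 in all 9 libraries, and whether the authors' counting left them out is not known.

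**Figure D5:**
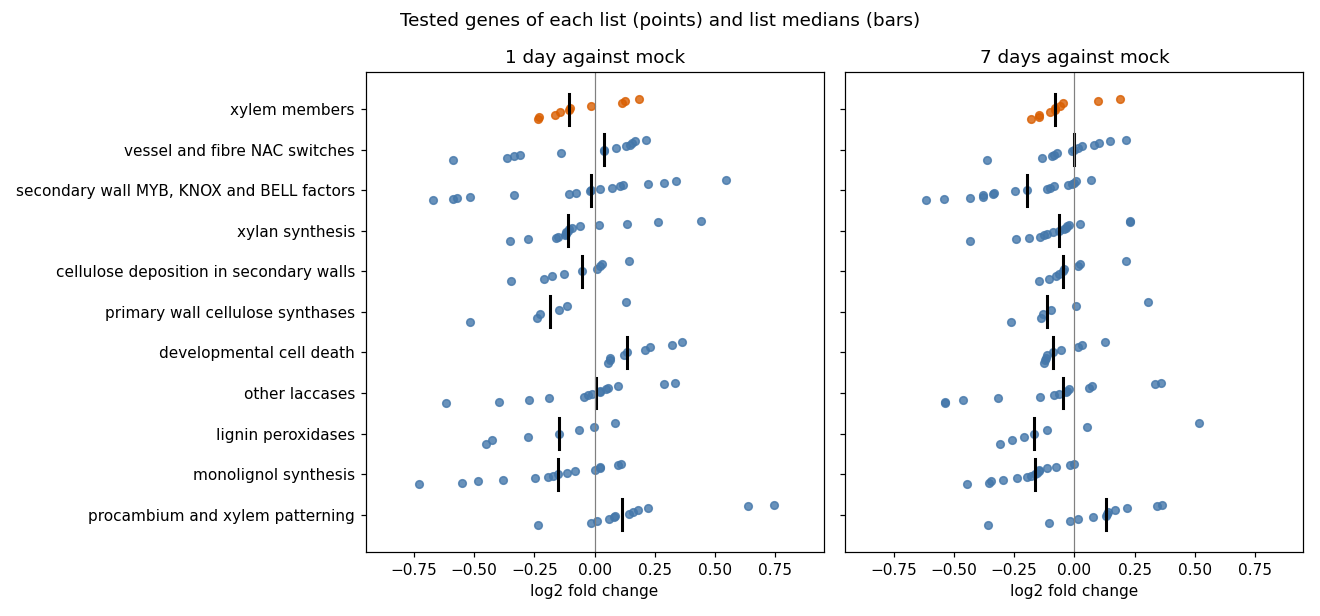
Log2 fold changes against mock of every tested gene in the set (top row) and in the 10 lists, after 1 day and after 7 days, with a bar at each list's median. The 9 listed developmental cell death genes lie above 0 after 1 day while XCP1 and XCP2 in the top row lie below it. Monolignol genes lie below 0 after 7 days, and no gene of any list passed edgeR's test.

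Some of these counts could be shared with overlapping genes, since the strand setting of the counting is not given in the sources used here. On the opposite strand, LAC17 overlaps AT5G60022 along 2266 bases (5 to 19 counts per library). CESA8 likewise overlaps MYB98 along 481 bases (0 to 1 counts). Of the list genes named here, VND2 overlaps AT4G36170 along 270 bases, PASPA3 overlaps PMP22 along 214 and ACL5 overlaps MSL9 along 196. FLA11 and PRX47 overlap neighbours on that strand along 56 and 78 bases. CESA4, CESA7 and XCP1 overlap neighbours by 66 bases or fewer.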

How the data were processed

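RNA was sequenced from roots in 9 libraries made with a stranded total RNA kit, per the labels' protocols. Per the submitters' processing notes the authors ran FastQC, cutadapt and edgeR; aligner, counter, build and strandedness of counting are not given in the sources. Values were deposited as unnormalized counts for 28775 genes, and 2 empty lines were dropped. Sample titles gave the group and replicate. RefSeq (TAIR10.1) names matched 28009 genes and gave transcript lengths (longest transcript), overlaps and promoters.

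Counts were filtered with filterByExpr (19580 genes left), scaled by TMM and fitted once over all 9 libraries with edgeR 4.0.16 (R 4.3.3, quasi-likelihood, group as the only factor). A gene was called at an adjusted p (Benjamini-Hochberg) below 0.05. SE is the absolute log2 fold change over the square root of F, and 95% intervals use 11.02 degrees of freedom. For VND7 this SE understates 2 of the p-values edgeR gives (0.923 and 0.516, where the SE would give 0.816 and 0.434). Log2 CPM used a prior count of 2. Intervals reflect the spread between libraries, which includes counting error. DESeq2 1.42.0 and the other alternatives are in the closing section.

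The members and the 16 lists were chosen with earlier results of these data known. Named were the 10 members, in each list other than those of markers every called gene and the 2 of lowest p in each comparison with mock, and the 6 genes of most alike profile. The untested NST1, NST2, NST3, SAC51 and LHW were named after their counts had been seen, and all other genes of a list are counted only. Replicate numbers were checked for pairing by the correlation of deviations from group means. Between 1 day and 7 days all 3 same-number pairs exceeded 0.1 (0.205 to 0.257), and pairs of unlike number reached at most 0.028. With mock only number 2 exceeded 0.1 (0.339 and 0.423). Some pairs of unlike number were as high, among them mock 1 with 1 day 3 (0.36) and with 7 days 3 (0.327), all shallow libraries. Whether the numbers pair the libraries is therefore not settled. Within groups every pair of libraries differed by more than sampling noise (chi-square of 10.1 or more for each degree of freedom).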

Additional observations from a re-analysis of the deposited data

How the results depend on the processing

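Under 18 alternatives for each of the 10 genes, 0 members were called in any comparison, and the lowest adjusted p was 0.408 for 1 day against mock, 0.992 for 7 days against mock and 0.843 for 7 days against 1 day. Log2 fold changes ran from -0.325 to 0.34, from -0.31 to 0.329 and from -0.488 to 0.248 in that order, with 3, 4 and 16 of 180 values of opposite sign. The cause of these changes was not tested. An unadjusted p under 0.05 was reached after 1 day by CESA4 under 3 alternatives (lowest 0.0197 in edgeR's fit without 1 day replicate 3) and by CESA7 under 1 (0.0449 in edgeR's fit without 1 day replicate 1).

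For all genes, 1 day against mock (31 called) gave 0 at an adjusted p under 0.01, 61 with no filter, 197 by DESeq2, 94 without the 3 libraries of lowest depth, 58 with depth class as a term, and 0 to 44 with any 1 library left out (0 without mock 3, 1 day 1 or 1 day 2). For 7 days against mock (0 called), DESeq2 gave 47, the fit without the shallow libraries 13 and depth class 2. A replicate block over all 9 libraries gave 41, 0 and 0 calls, and in fits of the 2 groups compared 74, 0 and 0, with 0 members called in each. The block over all libraries lowered the SE of LAC4 to 0.115, with log2 fold changes against mock of 0.095 and 0.174 (edgeR adjusted p = 0.836 and 1).

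Opposite signs in 7 days against 1 day were seen for CESA8, which is near 0 there, at 0.002 with RLE scaling, 0.006 by DESeq2, 0 with the replicate block, 0.001 with the replicate block in the 2 groups alone and 0.11 without the shallow libraries, where IRX9 was at 0.151. Without the shallow libraries VND7 was at 0.055 for 7 days against mock. With any 1 library left out, 1 day against mock ran from -0.041 to 0.34 for LAC4 and from -0.088 to 0.062 for LAC17. In the same fits 7 days against mock ran from -0.169 to 0.04 for XCP2, from -0.106 to 0.025 for VND7 and from -0.31 to 0.023 for MYB46. For 7 days against 1 day they gave -0.048 to 0.145 for CESA4, -0.068 to 0.057 for CESA8, -0.124 to 0.077 for IRX9, -0.066 to 0.146 for XCP2 and -0.152 to 0.231 for LAC4. The spread of VND7 (20 to 59 counts per library) was 0.638 times counting error, and that of MYB46 (27 to 109 counts) was 2.06 times. Where 1 library is left out, its group keeps a pair and the spread is shared over the groups.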
